A study of Mus musculus with 4 samples.

Results

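The genes described here are 10 cartilage genes, Acan, Hapln1, Matn1, Matn3, Matn4, Comp, Snorc, Cnmd, Cytl1 and C1qtnf3. They were listed by name, and all 10 were found among the 32285 genes counted. Aggrecan (Acan) is the large chondroitin sulfate proteoglycan of cartilage, which link protein (Hapln1) ties to hyaluronan, while the matrilins (Matn1, Matn3, Matn4) and cartilage oligomeric matrix protein (Comp) are oligomeric adaptors that connect collagen fibrils with other matrix molecules. Limb chondrocytes lay down this matrix as they mature, turn on Ihh when prehypertrophic and Col10a1 when hypertrophic, whereas the Gdf5-expressing interzone forms at the future joint. Snorc and chondromodulin (Cnmd) are made as transmembrane proteins of chondrocytes, and Cytl1 and C1qtnf3 are secreted proteins, so the list is wider than structural matrix.

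Cells of the presumptive knee region of mouse embryo hindlimbs were profiled by droplet single-cell RNA-seq, which counts mRNA molecules by a unique molecular identifier (UMI) read near their 3′ ends. There was 1 library for each of 4 conditions, so no difference between conditions could be tested against replicates, and the number of embryos pooled in a library is not given. The 2 control libraries, from E13.5 and E14.5, are titled WT and labelled as without Cre. The other 2 libraries, from E14.5, are labelled Prx1Cre;Glut1f/f;Glut3f/+ (Prx1cre in the labels), with both Glut1 alleles and 1 Glut3 allele floxed, and Prx1Cre;Glut1f/f;Glut3f/f, with both alleles of both genes floxed, called the double conditional knockout (DCKO). Glut1 and Glut3 are glucose transporters, encoded by Slc2a1 and Slc2a3. Prx1Cre acts in limb mesenchyme, from which cartilage, tendon and connective tissue arise, but not muscle, vessel or blood cells. Below, where 4 values are given they are those of the E13.5 control, the E14.5 control, the library with 1 floxed Glut3 allele (Prx1Cre;Glut1f/f;Glut3f/+) and DCKO, in this order. The E14.5 control served in the age comparison and in both comparisons with mutants.

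The libraries held 12769, 9707, 11690 and 11602 cell barcodes with 100344565, 84188147, 97110697 and 91574038 UMIs. Barcodes were kept when their genes numbered 200 to 6000 and their mitochondrial share was 10% or less, which left 12446, 9305, 11264 and 11305 cells with a median of 6176.5, 7279, 6757 and 6379 UMIs. Pairs of libraries shared 25 to 40 barcodes, at most 0.381% of the smaller one. Xist UMIs were found in 64.7, 0.172, 92.2 and 91.2% of cells and UMIs of Y-linked genes in 18.4, 65.9, 0.0355 and 0.0265%. The E13.5 control thus held cells of both sexes, the E14.5 control male cells and both mutant libraries female cells, so that sex and genotype cannot be told apart at E14.5, although all 10 genes are autosomal. Slc2a1 had 69.5, 79.3, 458 and 487 CPM (UMIs of the gene per 1000000 UMIs of the class) in chondrocytes, a log2 ratio to the E14.5 control of 2.53 (95% interval 2.48 to 2.58) and 2.62 (95% interval 2.57 to 2.67) in the libraries labelled as mutants. Its UMIs thus went against both labels. In muscle (myogenic) cells, where Prx1Cre does not act, Slc2a1 was higher too, at 1.09 (95% interval 0.74 to 1.46) and 1.49 (95% interval 1.01 to 1.97). Because the labels do not say which exons are floxed and UMIs come from the 3′ end, the deletion itself was not measured. Slc2a3 had 4.28, 2.91, 4.34 and 1.62 CPM. Genotype results therefore refer to libraries as labelled, and each mutant library is given by itself.

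Cells were sorted by UMIs of marker genes, none of them among the 10 genes described. Cells of blood, vessel, nerve, skin and muscle were taken out first. Chondrocytes had UMIs of at least 3 of Sox9, Col9a1, Col9a2, Col9a3 and Col11a2. Those with Ihh and at least 1 of Pth1r, Mef2c and Sp7 were called prehypertrophic, and those with at least 3 UMIs of Col10a1 hypertrophic. Of the cells already taken out as nerve (glial or neuronal, 54, 36, 77 and 52 cells), 50, 75, 79.2 and 94.2% also met the chondrocyte definition. Interzone cells had a Gdf5 UMI and at least 1 of Osr2, Sfrp2, Creb5 and Tgfbi. The remaining chondrocytes were split into immature and matrix-rich at 5327.1 CPM of type IX collagen (Col9a1, Col9a2 and Col9a3 summed), their median in the E14.5 control. That split divides a continuous range, and 4.00, 16.0, 14.47 and 17.5% of the cells split lay within 10% of the limit. Interzone cells numbered 2292, 1217, 1369 and 734, immature chondrocytes 3053, 2672, 3672 and 4874, matrix-rich 119, 2672, 1879 and 2212 and prehypertrophic 832, 343, 488 and 691. Where cells were clustered instead of sorted by markers, the prehypertrophic cluster held 946, 173, 154 and 37 cells. Over the E14.5 libraries it thus fell where the marker class rose. Prehypertrophic cells were deeper than immature ones, with a median of 9945, 16812, 16452 and 14043 UMIs against 6904, 7572, 7629 and 6958.5 in immature chondrocytes. Hypertrophic cells were few, at 16, 2, 45 and 37. Doublets were kept.

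All 4 libraries carry the label interzone as tissue, but interzone cells made up 18.4, 13.1, 12.2 and 6.49% of the kept cells and all chondrocytes (the 4 chondrocyte classes together) 32.3, 61.1, 54.0 and 69.1%. Col2a1, which no class definition used, had 2650.1, 5852, 5661 and 4861 CPM in all chondrocytes and 93.5, 101, 119 and 223 CPM in fibroblasts. Ranges in parentheses after a log2 ratio are exact 95% intervals from the counts, and after a median over the 10 genes the medians of the lower and upper bounds of the genes. They cover counting error only, not variation between embryos. A gene is called past 2-fold in a comparison when its log2 ratio is at or beyond 1 in size and 1 of the groups has at least 20 CPM and 20 UMIs.

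In GRCm38 the proteoglycan and its link protein lie apart, Acan from 79053483 to 79115099 on chromosome 7 and Hapln1 from 89539796 to 89611652 on chromosome 13. The adaptors are Matn1 from 130944385 to 130955475 on chromosome 4, Matn3 from 8947929 to 8972028 on chromosome 12, Matn4 from 164389393 to 164405160 on chromosome 2 and Comp from 70373558 to 70382066 on chromosome 8. The membrane proteins are Snorc from 87470271 to 87475482 on chromosome 1 and Cnmd from 79637690 to 79662170 on chromosome 14. The secreted proteins are Cytl1 from 37735519 to 37739820 on chromosome 5 and C1qtnf3 from 10952332 to 10980150 on chromosome 15. No chromosome holds more than 1 of the 10 genes. Matn4 shares 149 exon bases with Rbpjl on the opposite strand, and Hapln1 overlaps the pseudogene Gm8546 on the opposite strand with no shared exon base.

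Acan, the proteoglycan core protein, had 174.5, 505, 665 and 645 CPM in immature, 695, 1069.6, 1184.5 and 1047 CPM in matrix-rich and 594, 1390.5, 1521 and 1343.5 CPM in prehypertrophic chondrocytes. Its lowest values among these classes were those of the E13.5 control, and the 3 libraries of E14.5 lay close together. In the interzone Acan had 106, 368, 414.5 and 472.5 CPM and in fibroblasts 1.75, 13.1, 14.8 and 20.8 CPM. The order matrix-rich over immature over interzone held in each of the 4 libraries, with intervals of neighbours apart. Link protein Hapln1 had 136, 502, 484 and 491 CPM in immature, 893, 1079, 930.5 and 824 CPM in matrix-rich and 1310.0, 1547.5, 1417 and 1166 CPM in prehypertrophic chondrocytes. Prehypertrophic cells held more of it than the earlier stages in all 4 libraries. In the E14.5 control, however, its log2 ratio over matrix-rich cells, 0.52, turned to -0.056 under 1 of 11 alternatives. It had 30.5, 329, 278.5 and 353.5 CPM in the interzone, where the E13.5 control was far below the other libraries.

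Among the adaptors, Matn1 had 308, 884, 935 and 1071 CPM in immature and 1952, 2584, 2464 and 2233 CPM in matrix-rich chondrocytes. Matn3 had 22.4, 61.5, 42.5 and 44.6 CPM in immature and 104, 153, 125 and 88.9 CPM in matrix-rich chondrocytes. Matn4 had 833, 1032, 907 and 1224 CPM in immature and 1839.5, 1646, 1688 and 1944.5 CPM in matrix-rich chondrocytes. All 3 matrilins were higher in the matrix-rich class of every library. In prehypertrophic cells Matn4 fell to 1185, 765, 874 and 938 CPM, below the matrix-rich class in each library. Outside cartilage Matn4 had 81.0, 51.7, 47.6 and 159 CPM in fibroblasts. Per 100 Col2a1 UMIs, fibroblasts held 86.6, 51.4, 40.02 and 71.4 UMIs of Matn4 and all chondrocytes 35.9, 21.8, 19.7 and 27.9, so fibroblasts held more Matn4 per Col2a1 UMI than chondrocytes in each library. Acan, by the same measure, stood at 1.88, 13.04, 12.4 and 9.36 in fibroblasts and 11.4, 14.7, 16.7 and 17.8 in all chondrocytes, lower in fibroblasts beyond counting error in each library but the E14.5 control. Comp had 15.5, 85.5, 102 and 106 CPM in immature, 140, 242, 311 and 300.1 CPM in matrix-rich and 267, 579, 566 and 561 CPM in prehypertrophic chondrocytes, rising through the 3 classes in each library.

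Of the membrane proteins, Snorc had 70.2, 271, 214 and 304.5 CPM in immature, 731, 792.5, 721 and 712 CPM in matrix-rich and 730.1, 2640.2, 1676 and 1536 CPM in prehypertrophic chondrocytes. At E14.5 prehypertrophic cells held more Snorc than matrix-rich ones, and at E13.5 the 2 classes were level, although with the type IX limit 0.5 times as high the E13.5 log2 ratio was 1.40. Cnmd, an inhibitor of vessel growth, had 220, 444, 381 and 358 CPM in immature, 556, 879, 757.5 and 622 CPM in matrix-rich and 238, 814, 541 and 350.4 CPM in prehypertrophic chondrocytes. The matrix-rich class was highest among the 3 in each library, but in the E14.5 control the log2 ratio of Cnmd in prehypertrophic over matrix-rich cells was -0.11 and turned to 0.19 with clusters, to 0.078 with the type IX limit 0.5 times as high and to 0.056 with classes read at equal depth. The secreted protein Cytl1 had 178.5, 844, 579 and 554 CPM in immature, 471, 1200.3, 1130.4 and 897 CPM in matrix-rich and 348, 418, 354 and 301 CPM in prehypertrophic chondrocytes. At E14.5 it was lower in prehypertrophic cells than in either earlier class. C1qtnf3, a secreted protein with a C1q domain, had 2.83, 36.3, 18.3 and 13.8 CPM in immature, 94.6, 188, 82.0 and 32.1 CPM in matrix-rich and 35.1, 665, 203 and 58.3 CPM in prehypertrophic chondrocytes. The E14.5 control stood above the other libraries in each of these classes, most in prehypertrophic cells.

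**Figure D1:**
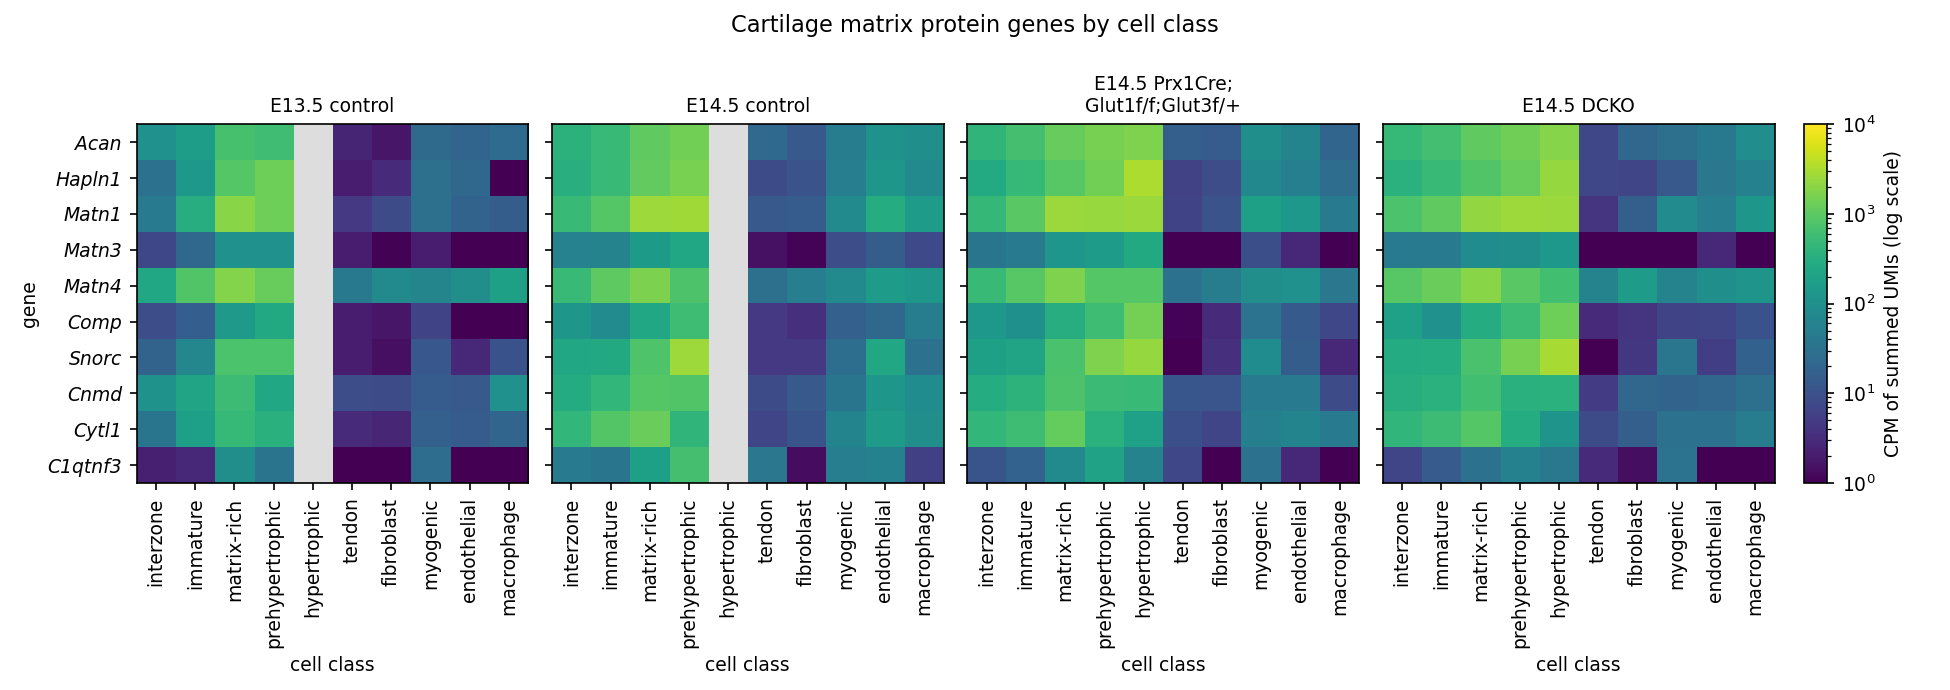
Heat maps of the level of each of the 10 genes in CPM (log colour scale) over 10 cell classes and the 4 libraries, with grey where a class held under 20 cells. Among the classes drawn, the highest level of each gene lies in a chondrocyte class in each library, and C1qtnf3 also has a level in myogenic cells above that of immature chondrocytes. In the E14.5 control its endothelial level lies above that of immature chondrocytes too. The glial or neuronal class is not drawn. It held more Snorc than matrix-rich chondrocytes in both mutant libraries, and more Hapln1 and Comp in DCKO.

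Outside cartilage, C1qtnf3 differed from the other 9 genes in muscle. Among myogenic cells that failed the chondrocyte definition (723, 217, 306 and 80 cells) it had 28.9, 49.6, 21.4 and 33.0 CPM and UMIs in 18.0, 33.6, 20.6 and 23.8% of cells. In the same cells Acan had 2.99, 3.44, 3.56 and 1.22 CPM and UMIs in 2.90, 4.61, 4.25 and 1.25% of cells, and Matn4 12.5, 5.16, 5.85 and 18.4 CPM. Fibroblasts had UMIs of C1qtnf3 in 0.390, 0.783, 0.623 and 0.238% of cells at a median depth of 5743, 6481, 5763 and 4801 UMIs, against 10016, 13007, 12554 and 10439.5 in those myogenic cells. The C1qtnf3 share in myogenic cells was thus above that in fibroblasts by more than their depths differ. The E14.5 control had the highest muscle level and share. The interval of the DCKO level, 21.8 to 48.1 CPM of C1qtnf3, overlapped those of both controls. That of Prx1Cre;Glut1f/f;Glut3f/+, 17.05 to 26.47 CPM, lay below that of the E14.5 control, 41.8 to 58.36 CPM. Tendon cells held 0, 38.9, 7.23 and 3.06 CPM of C1qtnf3, where fibroblasts held at most 1.39 CPM in any library. The DCKO value in tendon rests on 3 UMIs. At E13.5 C1qtnf3 was not detected in 230 tendon cells, where 3 UMIs would be 1.56 CPM. Endothelial cells of the E14.5 control held 56.8 CPM of C1qtnf3, on 15 UMIs in 36 cells, and those of the other libraries 0, 2 and 0 UMIs. The same 36 cells also held 30 UMIs of Acan and 80 of Matn1. No other gene of the 10 was higher in myogenic cells than in immature chondrocytes in any library.

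The first comparison set matrix-rich against immature chondrocytes, to follow the genes along the gain of type IX collagen. In the E14.5 control all 10 genes were higher in the matrix-rich class, with a median log2 ratio of 1.21 (1.15 to 1.27), and 7 of 10 were past 2-fold, where 0.699% of 6012 genes were past 2-fold higher and 2.51% lower. The median over all those genes was -0.03. The largest ratio was that of C1qtnf3, 2.37 (2.27 to 2.48), and the smallest that of Cytl1, 0.51 (0.48 to 0.54). Acan stood at 1.08 (1.05 to 1.11) and Matn4 at 0.67 (0.65 to 0.70). The split itself uses a cartilage collagen. With its limit set 0.5 and 2 times as high the median was 2.89 and 1.09. Where clusters of cells replaced the marker classes, the median was 0.07, with Acan, Matn3, Snorc and C1qtnf3 lower in the matrix-rich clusters. At E13.5, 119 matrix-rich cells gave a median of 2.44 (2.22 to 2.65), with 10 of 10 past 2-fold higher beside 3.48% of all genes (lower, 6.31%), and clusters gave -0.17 there.

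From matrix-rich to prehypertrophic cells of the E14.5 control, 3 of the 10 genes were past 2-fold higher, beside 1.81% of 5908 genes, and 2 past 2-fold lower, beside 2.35%. C1qtnf3 rose with a log2 ratio of 1.82 (1.76 to 1.88). Snorc rose with 1.74 (1.71 to 1.77) and Comp with 1.26 (1.197 to 1.32). With the type IX limit 2 times as high C1qtnf3 (0.87) and Comp (0.47) fell short of 2-fold, and Snorc did not (1.43). Cytl1 fell by 1.52 on the log2 scale, from 1200.3 to 418 CPM. Matn4 had a log2 ratio of -1.105 (-1.15 to -1.06), while Matn3 rose with 0.70 and Matn1 stood at 0.06. Over the alternatives Matn4 ran from -1.75 to -0.99, Matn3 from 0.56 to 1.16 and Matn1 from -0.63 to 0.38, so that the sign held for Matn4 and Matn3 but not for Matn1, and differences between the matrilins were not tested. Over the 10 genes the median was 0.45, and it was -0.23 when the type IX limit was doubled, which left 225 matrix-rich cells. At E13.5 the same comparison gave a median of -0.33 (0.57 with the type IX limit set 0.5 times as high), with no gene past 2-fold higher beside 2.6% of all genes and Cnmd (-1.22) and C1qtnf3 (-1.43) past 2-fold lower beside 1.02%. It rests on the 119 matrix-rich cells of that library, and for C1qtnf3 the ratio became 0.94 at that lower limit.

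Hypertrophic cells reached 20 in the mutant libraries only. There Hapln1 had 3199 CPM in Prx1Cre;Glut1f/f;Glut3f/+ and 2367 CPM in DCKO, and Comp 1474 and 1292 CPM. Both were above the prehypertrophic cells of the same library. Cytl1, at 193 and 117 CPM, and C1qtnf3, at 61.0 and 39.96 CPM, were below them, although for C1qtnf3 in DCKO, with 26 UMIs, the intervals of the 2 classes overlapped.

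The interzone was set against immature chondrocytes, the class of chondrocytes with the least type IX collagen. At E14.5 the median log2 ratio of interzone over immature was -0.53 (-0.59 to -0.48), and 1 of the 10 genes was past 2-fold lower, Matn4 at -1.004 (-1.05 to -0.96), beside 0.477% of 6294 genes, and none higher, beside 2.75%. Comp was higher in the interzone, 133 against 85.5 CPM, with a log2 ratio of 0.64 (0.54 to 0.74). C1qtnf3 was also higher, at 0.25 (0.08 to 0.42). At E13.5 all 10 genes were lower in the interzone, with a median of -1.68 (-1.85 to -1.52), and 6 of 10 were past 2-fold lower beside 1.03% of 6401 genes (higher, 1.94%), although Comp and C1qtnf3 did not reach 20 CPM in either class. The largest difference was that of Matn1, -2.77 (-2.87 to -2.66), and among genes that reached 20 CPM the smallest was that of Acan, -0.72 (-0.80 to -0.64). With the type IX limit set 0.5 times as high, the E14.5 median changed sign to 1.58, and with clusters it was -3.04, so the interzone values depend on how both classes are drawn.

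The interzone was divided by the chondrocyte definition, which 71.1, 63.4, 73.5 and 78.1% of its cells also met. Those that met it had 129, 466, 488 and 536 CPM of Acan and the others 25.0, 54.7, 46.0 and 25.4 CPM. For Matn1 the values were 57.2, 682, 559.9 and 826 CPM in those that met it and 4.00, 10.7, 6.65 and 11.4 CPM in the others. Both genes were thus carried mainly by the interzone cells that also met the chondrocyte definition, in each library. Matn4 stood at 287, 659, 608 and 1014 CPM and 121, 54.2, 78.7 and 163 CPM, again lower in the others. C1qtnf3 had 2.67, 44.7, 12.8 and 7.37 CPM in cells that met the definition and 0.749, 38.6, 1.66 and 2.54 CPM in the others. In the E14.5 control the intervals of both groups overlapped, and in the other libraries the second group held 2 or 3 UMIs of C1qtnf3. Gdf5 had 399, 221, 238 and 150.4 CPM in cells that met the chondrocyte definition and 363, 389, 352 and 299 CPM in the others.

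Age was compared between the control libraries. In all chondrocytes Acan rose from 302 CPM at E13.5 to 857 CPM at E14.5 and Hapln1 from 483 to 880.2 CPM. Matn1 rose from 619 to 1847.5 CPM, Matn3 from 47.0 to 124 CPM and Matn4 from 950.1 to 1275 CPM. In log2 ratio, 8 of the 10 genes were past 2-fold higher at E14.5, beside 2.46% of 6254 genes (lower, 2.85%), and the median was 1.52 (1.49 to 1.55) where that of all genes was -0.12. Matn4 rose least, 0.42 (0.41 to 0.44), and Hapln1 next, 0.87 (0.84 to 0.89). C1qtnf3 rose most, from 13.47 to 175.5 CPM (log2 ratio 3.70, 3.57 to 3.84), followed by Cytl1, from 231 to 954 CPM (log2 ratio 2.05, 2.01 to 2.08). The matrix-rich class took 0.956% of the younger control library and 28.7% of the older, so level and the make-up of the class cannot be told apart in this comparison. With clusters the median was 0.47, and Comp (-0.06) and Hapln1 (-0.43) were no longer higher at E14.5. In the interzone all 10 genes were past 2-fold higher at E14.5, beside 2.99% of all genes (lower, 1.34%), with a median of 3.48. There the least was Matn4 at 1.04 and the most C1qtnf3 at 4.27, 2.24 against 43.3 CPM. With clusters 4 of the 10 interzone ratios remained at or above 1, those of C1qtnf3 (3.77), Cytl1 (1.69), Hapln1 (1.51) and Matn1 (1.16), while Acan stood at 0.15, Cnmd at 0.17 and Matn4 at -0.23.

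Within a class the age difference was 1.71 in the median in immature chondrocytes, with 9 of 10 genes past 2-fold higher beside 2.65% of all genes (lower, 1.77%). With clusters 3 of those ratios remained at or above 1, those of Cytl1 (1.63), Comp (1.15) and C1qtnf3 (1.14), and with the type IX limit 0.5 times as high Matn4 turned to -0.26. The immature clusters held 121 cells of the E13.5 control, and 2005 of its cells lay in a cluster of low type IX collagen that got no class and held 25 cells of the E14.5 control. Classes of the 2 ages were thus made up of different clusters, and the part of this in the age ratios was not tested. In matrix-rich chondrocytes it was 0.59, with 1 of 10, Cytl1 at 1.35 (1.201 to 1.50), beside 2.84% (lower, 2.07%). C1qtnf3 lay just short of 2-fold at 0.99 and passed it with TMM scaling (1.12), and with the type IX limit 0.5 times as high 7 of the 10 ratios were at or above 1. In prehypertrophic chondrocytes it was 1.17, with 7 of 10 beside 2.1% (lower, 3.66%). The range of type IX collagen was then divided into 5 bins, under 2000, 2000 to 4000, 4000 to 6000, 6000 to 8000 and at least 8000 CPM, to compare the ages at like collagen content. Only immature and matrix-rich chondrocytes entered them. The bins held 1805, 981, 314, 59 and 13 cells at E13.5, so the values of the last bin rest on 13 cells. Cytl1 remained higher at E14.5 in each bin, with log2 ratios of 0.92, 1.48, 1.48, 1.36 and 1.74 from the lowest bin up. Comp did so too, with 1.44, 1.50, 1.12, 0.95 and 1.39, and Acan with 1.04, 0.69, 0.54, 0.61 and 0.29. Matn4 went the other way in each bin, with -0.40, -0.17, -0.13, -0.20 and -0.49, although TMM scaling moves the age ratios of immature and of matrix-rich chondrocytes up by 0.13, as much as the ratio in the bin from 4000 to 6000 CPM. Matn1, at -0.47, 0.43, 0.35, 0.28 and -0.11, and Cnmd, at 0.00, 0.35, 0.49, 0.49 and -0.12, stayed within 0.5 of no change. C1qtnf3, at 3.73, 2.42, 1.89, 0.63 and 0.03, had the largest ratio of the 10 genes in the 3 lowest bins and near 0 in the last. Hapln1, at 1.35, 1.06, 0.45, 0.17 and 0.61, and Snorc, at 0.94, 1.24, 0.20, -0.02 and 0.28, were higher at E14.5 mainly in the 2 lowest bins, and Matn3 stood at -0.18, 0.42, 0.48, 0.42 and 1.38. The order of the genes thus changed from bin to bin. Without the bin of 13 cells, each of the other 4 bins had the same direction for Cytl1, Comp, Acan, Hapln1, C1qtnf3 and Matn4.

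The mutant libraries were each compared with the E14.5 control. In all chondrocytes the median log2 ratio of the 10 genes was -0.30 (-0.32 to -0.28) for Prx1Cre;Glut1f/f;Glut3f/+ and -0.33 (-0.35 to -0.31) for DCKO, where the medians over all genes were -0.10 and -0.14. By class, in the order immature, matrix-rich and prehypertrophic, the medians were -0.20, -0.11 and -0.21 for Prx1Cre;Glut1f/f;Glut3f/+. For DCKO they were 0.07, -0.30 and -0.44, and in its immature cells 5 genes lay above 0 and 5 below. TMM scaling moved the DCKO ratios up by 0.15 in all chondrocytes pooled (0.19 in immature, 0.10 in matrix-rich and 0.19 in prehypertrophic cells) and by 0.13 in the interzone, the age ratios of all chondrocytes up by 0.16, and all ratios of interzone over immature at E14.5 by -0.11. C1qtnf3 alone was past 2-fold, with 175.5 CPM in the control, 63.4 CPM in Prx1Cre;Glut1f/f;Glut3f/+ and 25.5 CPM in DCKO. Its log2 ratio was -1.47 (-1.52 to -1.41) in Prx1Cre;Glut1f/f;Glut3f/+, where 0.138% of 5818 genes were past 2-fold lower. In DCKO it was -2.79 (-2.86 to -2.71), where 0.601% of 5825 genes were. None of the 10 was past 2-fold higher, where 0.258% of all genes were in Prx1Cre;Glut1f/f;Glut3f/+ and 0.704% in DCKO. In the clustering, 3 chondrocyte clusters came almost wholly from the mutant libraries, with 10, 0 and 0 cells of the E14.5 control, 1186, 215 and 66 of Prx1Cre;Glut1f/f;Glut3f/+ and 1651, 1025 and 193 of DCKO. The classes compared were thus made up of different clusters in control and mutants, and the part of this in the ratios was not tested. With 1 library each, the spread between embryos that these values would have to exceed is not known.

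Of the aggregate components, Acan had 857 CPM in control chondrocytes, 946 CPM in Prx1Cre;Glut1f/f;Glut3f/+ and 864 CPM in DCKO, with a DCKO log2 ratio of 0.01 (-0.01 to 0.03). Hapln1 was lower in DCKO, at -0.34 (-0.36 to -0.32). Among the adaptors Matn3 had 124, 85.6 and 65.0 CPM, with log2 ratios of -0.53 (-0.58 to -0.48) and -0.93 (-0.98 to -0.87). It was the adaptor with the largest fall, next to C1qtnf3 among the 10 genes. Matn1 stood at -0.22 and -0.20 and Matn4 at -0.19 and 0.09 in the order of the libraries. Comp was higher in both, at 0.21 and 0.15. Cnmd had 679.9, 509 and 423 CPM, with log2 ratios of -0.42 and -0.68, and Snorc had ratios of -0.38 and -0.32. Cytl1 had 954, 691 and 597 CPM, with -0.46 and -0.68. Apart from C1qtnf3, then, differences stayed under 2-fold and ran in both directions, although over the alternatives Matn3 in DCKO reached -1.01.

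Of the classes, prehypertrophic cells of DCKO had the most of the 10 genes past 2-fold. There C1qtnf3 had 665 CPM in the control, 203 CPM in Prx1Cre;Glut1f/f;Glut3f/+ and 58.3 CPM in DCKO, and UMIs in 14.1, 77.8, 57.6 and 29.5% of cells, the E13.5 control first. Thinned to 2000 UMIs per cell, these shares were 4.00, 52.4, 23.3 and 7.87%. Both mutant libraries lay below the E14.5 control, and DCKO below Prx1Cre;Glut1f/f;Glut3f/+. In DCKO prehypertrophic cells 3 of 10 genes were past 2-fold lower, C1qtnf3 at -3.51 (-3.64 to -3.39), Matn3 at -1.32 (-1.43 to -1.203) and Cnmd at -1.22 (-1.28 to -1.15), beside 4.01% of 5614 genes. Snorc followed at -0.78 (-0.81 to -0.75). The cluster called prehypertrophic held 37 cells of DCKO, against 691 in the marker class, and 173 against 343 of the E14.5 control. Most DCKO cells of the class thus lay in other clusters, and the part of this in the ratios was not tested. In Prx1Cre;Glut1f/f;Glut3f/+ 1 of 10 was past 2-fold lower, C1qtnf3 at -1.71 (-1.79 to -1.63), beside 0.618%. In immature chondrocytes C1qtnf3 was the 1 gene past 2-fold lower in DCKO, at -1.39 (-1.55 to -1.24) beside 0.892%. None of the 10 was in Prx1Cre;Glut1f/f;Glut3f/+, where C1qtnf3 stood at -0.99 beside 0.236%. These counts depend on the processing, since over the alternatives C1qtnf3 in Prx1Cre;Glut1f/f;Glut3f/+ ran from -2.12 to -0.85. Matn3 ran from -1.06 to 0.01 there and from -1.22 to 0.06 in DCKO. In matrix-rich chondrocytes C1qtnf3 was the 1 gene in both, at -1.198 (-1.29 to -1.11) beside 0.175% in Prx1Cre;Glut1f/f;Glut3f/+ and -2.55 (-2.68 to -2.42) beside 0.591% in DCKO. None of the 10 genes was past 2-fold higher in immature, matrix-rich or prehypertrophic cells, where 0.421, 0.122 and 0.759% of all genes were in Prx1Cre;Glut1f/f;Glut3f/+ and 0.555, 0.713 and 1.55% in DCKO.

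**Figure D2:**
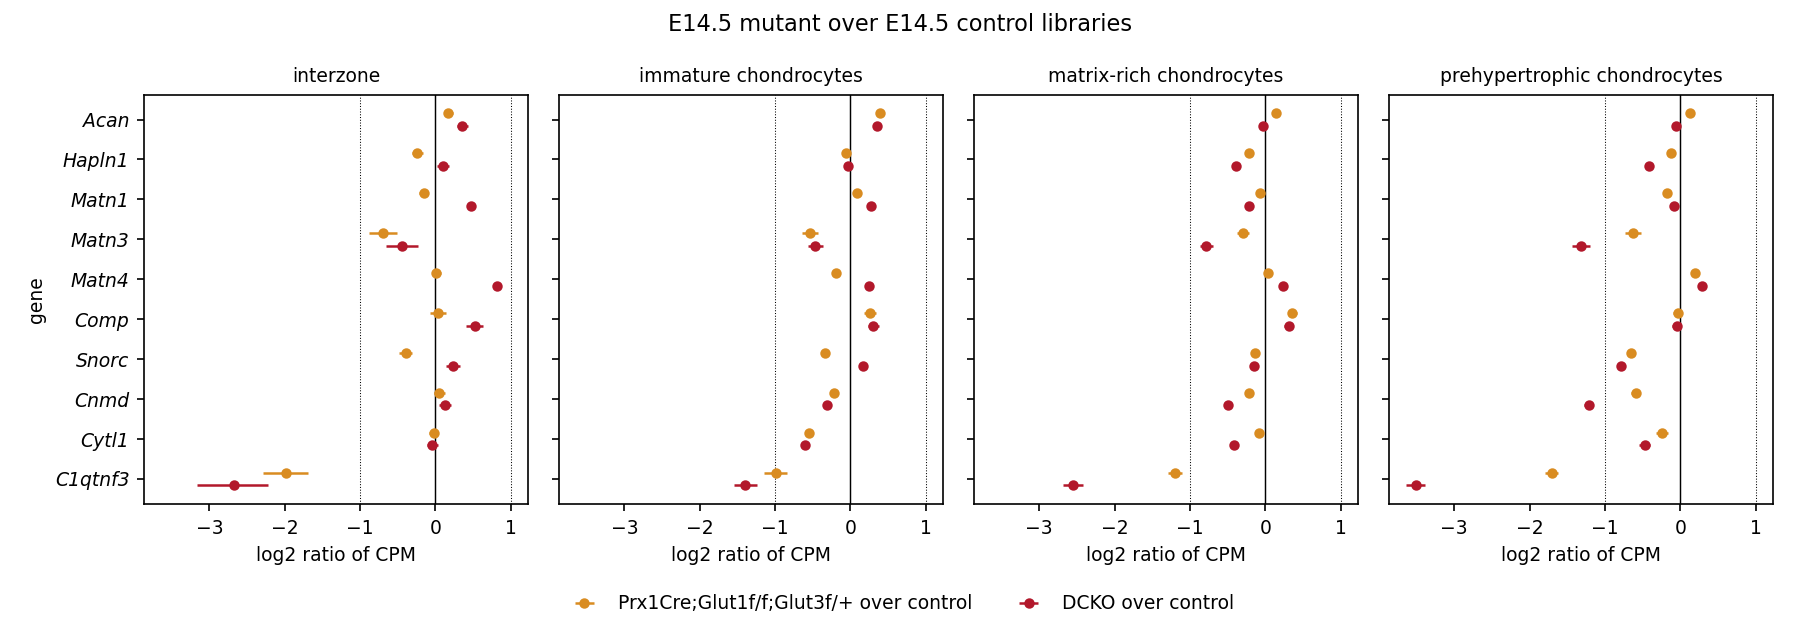
Log2 ratios of the 10 genes in both mutant libraries over the E14.5 control, in 4 classes, with exact 95% intervals as bars (counting error only) and dotted lines at 2-fold. C1qtnf3 lies lowest in each panel, and most other points lie between the dotted lines.

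Type IX collagen itself had a lower median per cell in mutant chondrocytes, 2139.9, 5448, 4385 and 4359 CPM over the 4 libraries. The genotypes were therefore also compared within the 5 bins, which take in immature and matrix-rich cells but no prehypertrophic ones. C1qtnf3 had 10.2, 17.2, 82.5, 180.3 and 284.5 CPM in the E14.5 control from the lowest bin up. In Prx1Cre;Glut1f/f;Glut3f/+ it had 1.43, 10.4, 53.0, 78.6 and 101.5 CPM and in DCKO 0.696, 7.38, 29.6, 34.2 and 21.5 CPM. It was lower in all 5 bins of both mutant libraries, with DCKO log2 ratios of -3.87, -1.22, -1.48, -2.40 and -3.73. Matn3 in DCKO was at 0.13, -0.40, -0.58, -0.89 and -0.98, with an interval of -0.44 to 0.72 in the lowest bin and below 0 in the other 4, and in Prx1Cre;Glut1f/f;Glut3f/+ at 0.47, -0.51, -0.39, -0.43 and 0.03. Matn4 was higher in DCKO in each bin, at 0.53, 0.17, 0.14, 0.32 and 0.45, whereas in Prx1Cre;Glut1f/f;Glut3f/+ it was lower in the 3 lowest bins, at -0.09, -0.21, -0.15, 0.08 and 0.20. For Matn4 the sign thus differed between the mutant libraries in the 3 lowest bins, and differences between these libraries were not tested. TMM scaling moves the ratios of immature cells in Prx1Cre;Glut1f/f;Glut3f/+ up by 0.14, more than the size of its Matn4 ratio in the lowest bin. Comp in DCKO stood at 0.36, 0.06, 0.33, 0.42 and 0.20, with intervals that reach below 0 in the 2 lowest bins, and in Prx1Cre;Glut1f/f;Glut3f/+ at 0.85, 0.35, 0.29, 0.40 and 0.41. Acan in DCKO was higher in the lowest bin, at 0.65, 0.28, 0.20, 0.00 and -0.16, with 0.74, 0.44, 0.31, 0.17 and 0.09 in Prx1Cre;Glut1f/f;Glut3f/+. Its DCKO interval in the highest bin was -0.23 to -0.09. That bin holds matrix-rich cells only, whose DCKO ratios TMM scaling moves up by 0.10. Matn1 went from higher in the lowest bin to lower in the highest in DCKO, at 1.17, 0.37, 0.08, -0.11 and -0.58, with 0.94, 0.33, 0.05, -0.03 and -0.17 in Prx1Cre;Glut1f/f;Glut3f/+. Hapln1 ran from -0.22 to 0.79 in Prx1Cre;Glut1f/f;Glut3f/+ and from -0.44 to 0.685 in DCKO. In the same order Cnmd ran from -0.27 to -0.03 and from -0.44 to 0.04. Snorc ran from -0.50 to 0.17 and from -0.875 to 0.48, below 0 in 4 and 3 bins. Cytl1 ran from -0.61 to 0.35 and from -0.73 to 0.21, below 0 in 3 and 4 bins.

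**Figure D3:**
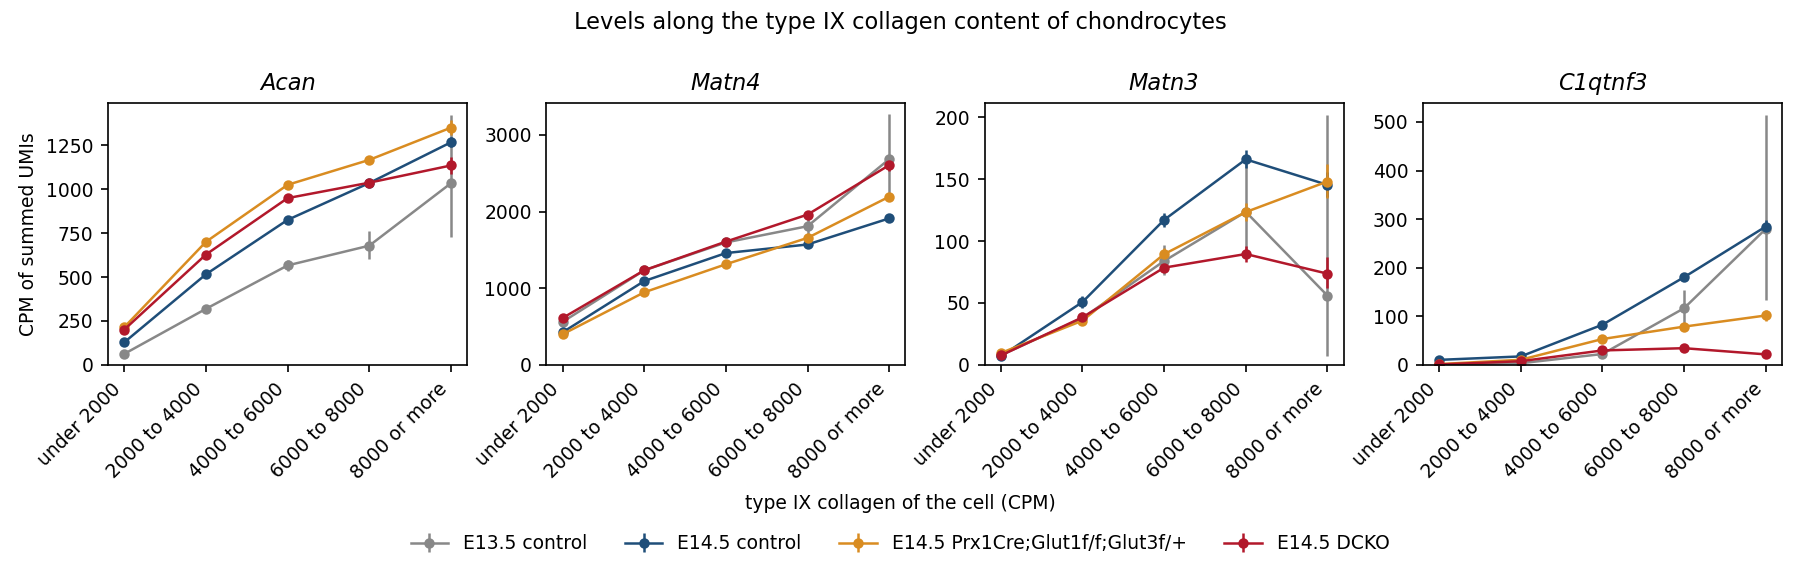
Level in CPM of Acan, Matn4, Matn3 and C1qtnf3 in immature and matrix-rich chondrocytes sorted into 5 bins of type IX collagen CPM (from under 2000 to at least 8000), with 1 line per library and Poisson 95% intervals. The mutant lines of C1qtnf3 lie below the E14.5 control in each bin, and the E13.5 point of the highest bin rests on 13 cells.

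In the interzone of DCKO, 734 cells against 1217 in the control, the median log2 ratio was 0.18 (0.09 to 0.27), and 1 of the 10 genes was past 2-fold, C1qtnf3 lower at -2.68 (-3.16 to -2.22), beside 2.48% of 6285 genes. No gene was past 2-fold higher, beside 0.477%. Matn4 was higher, with 515 CPM in the control and 908.5 CPM in DCKO, a log2 ratio of 0.82 (0.77 to 0.87). Comp stood at 0.52 (0.41 to 0.64) and Matn1 at 0.47 (0.42 to 0.53). The share of interzone cells that also met the chondrocyte definition was larger in DCKO, as given above, and the median type IX collagen of interzone cells was 945, 859, 1433 and 2204.5 CPM over the 4 libraries. The part of that make-up in the rises was not tested. Among cells that met the definition, Matn4 had 659 CPM in the control and 1014 CPM in DCKO. In the same order Matn1 had 682 and 826, Comp 172 and 218, Acan 466 and 536 and Snorc 320 and 328 CPM. Lower in DCKO were Cnmd, with 359.7 and 348.5 CPM, Hapln1 (429 and 400), Cytl1 (582 and 490), Matn3 (76.5 and 49.6) and C1qtnf3 (44.7 and 7.37). These cells were not matched for type IX collagen. In Prx1Cre;Glut1f/f;Glut3f/+ the interzone median was -0.09 (0.01 with TMM scaling), with C1qtnf3 at -1.98 (-2.29 to -1.69) as the 1 gene past 2-fold lower beside 0.609% (higher, 0.0481%). With clusters in place of the marker definitions the DCKO interzone median was -1.34, with Matn4 still higher at 0.33 but Comp at -1.26 and Matn1 at -1.45.

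Likeness among genes was measured as Pearson's correlation of log2 CPM over 48 sums of a class in a library, which share libraries and depth, among 9675 genes. It describes these sums and carries no test. Acan was most like Col11a2 (0.973) and Col2a1 (0.968), and Hapln1 like Col11a2 (0.973) and Susd5 (0.965). Matn1 was most like Col9a1 (0.981), Matn3 like Col9a2 (0.951), Comp like Col11a2 (0.957) and Snorc like Col9a1 (0.957). Collagens of types IX and XI also define the chondrocyte class. Cnmd was most like Col9a3 (0.972) and Matn4 like Col9a3 (0.944), with Wwp2 (0.942) as its 3rd. Cytl1 was most like Susd5 (0.957). C1qtnf3 differed in having Serpina3n (0.782), Kctd4 (0.778) and Foxa3 (0.768) as its nearest genes and no collagen among them. Among the 10 genes, the closest pairs were Matn1 with Snorc and Hapln1 with Matn1, both at 0.971, and the farthest was Matn4 with C1qtnf3 at 0.589. Over the 16 sums of interzone and chondrocyte classes alone, C1qtnf3 stood at 0.934 with Matn3 and 0.883 with Snorc, and Matn4 with C1qtnf3 was again the farthest pair, at 0.438.

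Related genes were followed through 4 lists. Of 13 other cartilage proteins, 7 reached 20 CPM and 20 UMIs for the age comparison in chondrocytes, of which 5 were past 2-fold higher and 1 lower (beside 2.46% and 2.85% of all genes), with a median log2 ratio of 1.29. Ucma rose from 1.03 to 21.8 CPM (log2 4.41), Epyc from 50.9 to 227.5 CPM (log2 2.16), Scrg1 from 30.9 to 127 CPM (log2 2.04) and Chad from 40.9 to 100.1 CPM (log2 1.29). The others were Mia (1.097) and, lower, Vcan (-1.01), named after their values were seen. In DCKO chondrocytes 2 of 7 were past 2-fold lower (beside 0.601% of all genes), Ucma (-1.98) and Scrg1 (-1.19), with a median of -0.44. In Prx1Cre;Glut1f/f;Glut3f/+ Ucma alone was past 2-fold lower (-1.22, beside 0.138% of all genes), with a median of -0.23. Of 18 genes of chondroitin sulfate synthesis, the side chains of aggrecan, 12 reached the limits, and 2 were past 2-fold higher with age, Xylt1 (1.38) and Csgalnact1 (1.03), while none of the 12 was past 2-fold in DCKO, where the median was -0.03. Of 11 genes of matrix turnover 6 reached the limits, and in all chondrocytes none was past 2-fold with age (median 0.48) or in DCKO (median -0.31). With age in prehypertrophic cells, 2 of 6 were past 2-fold higher and 1 lower, beside 2.1% and 3.66% of all genes. In matrix-rich cells 1 of 6 was higher, beside 2.84%, and in the interzone 1 of 7, beside 2.99%. Of 11 transcription factors 9 reached them. Foxa3 was past 2-fold higher with age (1.21), and Runx2 (-2.27) and Runx3 (-1.36) lower. Between matrix-rich and prehypertrophic cells at E14.5, Runx2 (2.11), Runx3 (1.67) and Zbtb20 (1.31) were past 2-fold higher, 3 of 9 beside 1.81% of all genes. None of the 9 was past 2-fold in all DCKO chondrocytes, where their median was -0.35. In DCKO prehypertrophic cells 2 of 9 were past 2-fold lower, Sox9 (-1.28) and Runx3 (-1.51), beside 4.01% of all genes, with a median of -0.55. Sox9 is also among the genes that define the chondrocyte class, so its level there depends on the definition.

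Promoters of 300 bases, 250 before and 50 after the start site in RefSeq (GRCm38.p6), were found for 8 of the 10 genes, with 2 for Matn4, hence 9 promoters. Comp and Snorc had no entry in the promoter table used. Both strands of each were searched for 3 motifs, and their shares are of all 32851 promoters. The SOX core AACAAT, held by 10.7% of all promoters, was in none of the 9. The RUNX core TGTGGT, held by 16.8%, was in 3 of them. TATAAA, the letters of a TATA box, held by 13.6%, was in 1. The 3 promoters with a match, among them that of C1qtnf3, the gene with the largest age and genotype ratios in all chondrocytes, are printed 5′ to 3′ with the matches in capitals. They lie on the + strand, Hapln1 at chr13:89540386-89540685, inside the annotated gene, Matn1 at chr4:130944135-130944434 and C1qtnf3 at chr15:10952082-10952381, where TATAAA at -6 and the RUNX letters of the opposite strand at 1 from the start site adjoin. A match is a run of letters and does not show that a factor binds.
Hapln1: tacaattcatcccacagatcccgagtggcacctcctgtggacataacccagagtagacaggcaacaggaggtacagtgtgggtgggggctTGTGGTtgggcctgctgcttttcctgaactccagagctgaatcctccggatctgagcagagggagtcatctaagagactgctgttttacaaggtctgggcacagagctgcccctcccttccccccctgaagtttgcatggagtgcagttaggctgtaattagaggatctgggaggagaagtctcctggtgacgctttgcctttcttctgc
Matn1: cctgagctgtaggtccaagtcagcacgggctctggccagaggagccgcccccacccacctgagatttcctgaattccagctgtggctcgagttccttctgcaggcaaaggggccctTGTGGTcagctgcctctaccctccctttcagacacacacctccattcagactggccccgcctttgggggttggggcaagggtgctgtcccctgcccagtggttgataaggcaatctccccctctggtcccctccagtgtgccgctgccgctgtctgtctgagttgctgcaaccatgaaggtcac
C1qtnf3: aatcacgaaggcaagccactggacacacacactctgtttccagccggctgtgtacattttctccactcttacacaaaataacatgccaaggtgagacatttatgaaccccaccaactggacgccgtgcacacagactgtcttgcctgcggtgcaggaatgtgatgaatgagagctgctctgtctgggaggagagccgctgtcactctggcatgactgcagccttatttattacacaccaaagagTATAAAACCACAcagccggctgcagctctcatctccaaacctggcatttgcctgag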

How the data were processed

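Droplet 3′ libraries (10x kit version 3.1) of E13.5 and E14.5 mouse knee regions were processed by the authors with Cell Ranger 6.1.2 on mm10, and the deposited values are raw UMI counts per gene and cell. Cells were kept and sorted into classes by marker UMIs as described, and UMIs of each class and library were summed and given as CPM (counts per 1000000 UMIs of the class). Counts past 2-fold and medians over all genes used a prior count of 0.5. Intervals (95%) are exact Poisson for CPM, conditional binomial for ratios and Clopper-Pearson for shares of cells, and the range beside a median over the 10 genes is the median of their lower and upper bounds. With 1 library per condition no replicate test was run. The 10 genes and the lists (18 genes of chondroitin sulfate synthesis, 13 other cartilage proteins, 11 of matrix turnover, 11 transcription factors) were chosen with earlier results of these data known. All 10 genes are named, with Slc2a1 and Slc2a3, up to 4 genes of each list with the largest ratio in a comparison, and up to 3 genes most like each of the 10. Mia and Vcan, outside this rule, were named after their values were seen. Over 21 comparisons, 11 alternatives were tried, 1 of them chosen after seeing the data. Positions came from GENCODE M21, which matched 99.61% of the gene IDs. Python 3.11.15, numpy 2.4.6, scipy 1.17.1, pandas 2.3.3, scanpy 1.11.5 with leidenalg 0.10.2, matplotlib 3.10.9, R 4.3.3 and edgeR 4.0.16 (TMM) were used.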

Additional observations from a re-analysis of the deposited data

Results flagged for a closer look

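For 5 of the 10 genes the log2 ratio of DCKO over the E14.5 control had opposite signs in matrix-rich chondrocytes and in the interzone. Acan stood at -0.031 in matrix-rich chondrocytes and 0.36 in the interzone, Hapln1 at -0.39 and 0.10, Matn1 at -0.21 and 0.47, Snorc at -0.16 and 0.23 and Cnmd at -0.50 and 0.13. The share of all genes with opposite signs in these classes was not counted, so 5 of 10 cannot be called more than usual. These values rest on 1 library per genotype, and the differences between the classes were not tested. With TMM scaling, which moves the matrix-rich ratios up by 0.10, Acan is higher in both classes. With clusters in place of marker classes the interzone ratios of all 5 were below 0, with Acan at -1.06, Hapln1 at -1.43, Matn1 at -1.45, Snorc at -1.78 and Cnmd at -0.13, so the opposite signs depend on how the classes are drawn.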

How the results depend on the processing

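Of 210 ratios (10 genes in 21 comparisons), those with the sign reported numbered 201 with TMM scaling, 210 with a stricter cell filter (at least 1000 genes, at most 5% mitochondrial UMIs), 210 with the 10 genes and collagens left out of the denominator, 200 with at least 2 UMIs for a marker, 204 with the mean of cells, 206 without the 8% of cells with the highest doublet scores, 206 with Gdf5 alone for the interzone, 187 with a type IX limit 0.5 times as high, 167 of 180 with 2 times that limit, 164 with clusters and 191 with classes read after thinning cells to 2000 UMIs, the alternative chosen after seeing the data. Of the 77 ratios past 2-fold, 41 stayed past it with clusters, 63 after thinning, 67 at 0.5 times the limit and 60 of 64 at 2 times. With at least 2 UMIs for a marker 69 did, and under each of the other alternatives at least 74. The fall of C1qtnf3 in all chondrocytes stayed past 2-fold in both mutant libraries under all 11. Scrublet's own threshold called 0, 2, 0 and 1 cells and was not used, and at 2 times the limit no matrix-rich value was obtained at E13.5, with under 20 cells.

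The median log2 ratios of the 10 genes moved beyond their intervals as follows, and the cause was not tested. Matrix-rich over immature at E14.5 (1.21) was 1.30 with TMM, 1.06 with 2 UMIs, 1.30 with the mean of cells, 2.89 with 0.5 times and 1.09 with 2 times the limit, 0.073 with clusters and 0.72 thinned. Prehypertrophic over matrix-rich (0.45) was 0.50 with TMM, 0.52 with 2 UMIs, 0.39 with the mean, 0.66 with 0.5 times and -0.23 with 2 times the limit, 0.86 with clusters and 0.72 thinned. Interzone over immature at E14.5 (-0.53) was -0.64 with TMM, -1.12 with 2 UMIs, -0.82 with the mean, -0.70 without doublet scores, 1.58 with 0.5 times and -1.18 with 2 times the limit, -0.38 with Gdf5 alone, -3.04 with clusters and -2.29 thinned. At E13.5 (-1.68) it was -2.13 with 2 UMIs, -0.52 with 0.5 times the limit, -3.59 with clusters and -2.77 thinned. Age in all chondrocytes (1.52) was 1.68 with TMM, 1.32 with 2 UMIs, 1.47 with the mean, 1.48 without doublet scores, 0.47 with clusters and 1.16 thinned. Prx1Cre;Glut1f/f;Glut3f/+ in all chondrocytes (-0.30) was -0.21 with TMM, -0.35 with the mean, -0.35 with clusters and -0.27 thinned. DCKO in all chondrocytes (-0.33) was -0.18 with TMM, -0.39 with the mean, -0.40 with clusters and -0.31 thinned. DCKO in the interzone (0.18) was 0.31 with TMM, 0.32 with 2 UMIs, 0.36 with the mean, 0.39 without doublet scores, -1.34 with clusters and 0.90 thinned. Among these, 3 values changed sign.

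Clusters in place of marker classes reversed matrix-rich over immature at E13.5 (median -0.17, on 74 and 121 cells), with Acan at -0.22, Hapln1 at -0.13, Matn1 at -0.27, Matn3 at -0.58, Snorc at -0.72, Cnmd at -0.046 and C1qtnf3 at -1.12. At E14.5 they reversed Acan (-0.024), Matn3 (-0.68), Snorc (-0.46) and C1qtnf3 (-0.36), and with age Comp in all chondrocytes (-0.058) and Matn4 in the interzone (-0.23). Hapln1 with age in all chondrocytes, under 2-fold as reported (0.87), changed sign too (-0.43). At 0.5 times the limit C1qtnf3 in prehypertrophic over matrix-rich cells at E13.5 reversed to 0.94. The cause was not tested.

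No paired analysis was possible because each condition had 1 library and the labels pair no embryos. Depth limits low values, as in tendon at E13.5, where C1qtnf3 had no UMI. Sex cannot be told apart from genotype, and spread between embryos is unknown.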
